A study of Mus musculus with 24 samples.

Results

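Ependymal marker genes were followed through hippocampal RNA-seq libraries of WT and MSK1 KD mice: Cdhr3, Rarres2, Foxj1, Tmem212, Ccdc153, Dynlrb2, Pifo, Mia and Hydin. These 9 are among 49568 gene symbols in the count files. Cdhr3 and Rarres2 were chosen by their difference between WT EE and KD EE in these same mice, and the other 7 for their role as ependymal markers, with their CPM across the groups and against Ttr already known. The levels, fold changes and correlations of the 9 genes are therefore a description. No p is given for them, the calls that the fits made among them are counted beside the share of all genes and support nothing, and p are given only for genes outside this set.

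The mice were males on a C57-Bl/6J background, labelled as 12 weeks old, and the RNA came from the whole hippocampus. The groups were wild type in standard cages (WT SH), wild type in an enriched environment (WT EE), MSK1 KD in standard cages (KD SH) and MSK1 KD in an enriched environment (KD EE). MSK1 KD mice carry a homozygous knock-in point mutation that leaves the kinase MSK1 (gene Rps6ka5) in place but inactive in every cell, and they were bred as a line separate from the WT mice rather than as littermates. Enriched cages were large and held a running wheel and toys that were changed over time, and the mice were born and reared in them with several dams. Each group had 6 libraries, 24 in all. Of the EE libraries, 33B (WT EE) and 34B (KD EE) did not pass quality control by their labels, which leaves 22 libraries with 6 mice in each SH group and 5 in each EE group.

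The ependyma is the epithelium of multiciliated cells that lines the brain ventricles, including the stretch of the lateral ventricle along the hippocampus. Its cilia beat and move cerebrospinal fluid, and their core, the axoneme, is built from microtubule doublets with dynein arms, radial spokes, nexin links and a central pair. FOXJ1 is the transcription factor that turns on the genes of motile cilia. The choroid plexus is a neighbouring epithelium of the same ventricle that secretes cerebrospinal fluid. Its cells also carry cilia and share part of the ciliary program, while Ttr, which codes for the thyroid hormone carrier transthyretin, is made there in very large amounts and not by ependymal cells. In a dissected hippocampus both epithelia can come along at the edge of the tissue, and in bulk RNA fewer cells of a type and less RNA per cell cannot be told apart.

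Counts on genes were between 8911999 and 56752074 per library (median 30265878), and a floor of 3 counts stood for 0.0529 to 0.337 CPM (a gene's count relative to the TMM-scaled sum of counts on genes). The study's own comparisons left out 5 of the 22 libraries for poor correlation with their group, so that its set holds 17. They are libraries 2 of KD SH, 12 of WT SH, 9 of KD EE, and 31B with 35A of WT EE. Ttr splits along the same line. In the libraries that were kept, Ttr was between 16.8 and 686 CPM in SH (n = 10) and between 901 and 5105 CPM in EE (n = 7). In those left out it was at 1667 and 2635 CPM in the 2 SH libraries and between 34.2 and 164 CPM in the 3 EE libraries. The order of housing in Ttr is thus turned around in the libraries left out, and the members' fold changes of EE against SH are given for both sets. Markers of hippocampal neurons were present in every library, with the summed CPM of 6 of them between 4267 and 5612.

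The genes lie on 7 chromosomes (GENCODE M21 on GRCm38), and all 9 are protein coding. Cdhr3 (ENSMUSG00000035860) is at chr12:33033796-33092875 on the minus strand, Rarres2 (ENSMUSG00000009281) at chr6:48569696-48572789 on the minus strand and Foxj1 (ENSMUSG00000034227) at chr11:116330704-116335399 on the minus strand. Tmem212 (ENSMUSG00000043164) is at chr3:27866066-27896368 and Pifo (ENSMUSG00000010136) at chr3:105996957-106014646, both on the minus strand. Ccdc153 (ENSMUSG00000070306) is at chr9:44240676-44247306 on the plus strand. Dynlrb2 (ENSMUSG00000034467) at chr8:116504974-116515915 and Hydin (ENSMUSG00000059854) at chr8:110266977-110610253 are on the plus strand, and Mia (ENSMUSG00000089661) is at chr7:27179742-27181157 on the minus strand. For 3 of them, exon bases are shared with another gene. Reads were counted without regard to strand, which matters where that gene is on the opposite strand. In Rarres2, 892 of 2656 exon bases (33.6%) are also exon of Lrrc61 on the opposite strand, in Mia 410 of 994 (41.2%) belong to Gm21983 on the same strand, and in Hydin 237 of 18037 (1.31%) to Gm26832 on the opposite strand. Fragments from those bases cannot be assigned to 1 gene.

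RefSeq start sites (GRCm38.p6) were matched for 7 of the 9 genes, in 8 promoter windows of 250 bases. The windows of Cdhr3, Tmem212, Ccdc153 and Hydin are shown, 4 members whose mean was lowest in KD EE, because cilium genes are known to be under RFX factors, which bind a motif called the X-box. Capitals mark GTTGCC, a half-site of the X-box, or its reverse complement GGCAAC. Each line runs 5′ to 3′ along the gene and ends at the base before the transcript start.
Cdhr3: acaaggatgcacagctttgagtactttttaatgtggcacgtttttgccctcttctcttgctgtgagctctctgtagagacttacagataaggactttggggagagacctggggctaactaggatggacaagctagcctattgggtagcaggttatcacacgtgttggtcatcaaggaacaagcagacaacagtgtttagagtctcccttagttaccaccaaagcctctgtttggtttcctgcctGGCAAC
Tmem212: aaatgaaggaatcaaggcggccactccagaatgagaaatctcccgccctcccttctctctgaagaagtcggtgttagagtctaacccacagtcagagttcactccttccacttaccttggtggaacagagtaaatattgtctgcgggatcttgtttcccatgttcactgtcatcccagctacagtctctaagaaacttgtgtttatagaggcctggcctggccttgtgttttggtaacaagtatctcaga
Ccdc153: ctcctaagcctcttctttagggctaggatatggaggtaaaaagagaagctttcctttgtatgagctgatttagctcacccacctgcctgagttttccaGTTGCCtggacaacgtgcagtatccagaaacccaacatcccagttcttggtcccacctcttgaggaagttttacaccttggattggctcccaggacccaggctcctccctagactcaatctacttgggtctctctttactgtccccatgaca
Hydin: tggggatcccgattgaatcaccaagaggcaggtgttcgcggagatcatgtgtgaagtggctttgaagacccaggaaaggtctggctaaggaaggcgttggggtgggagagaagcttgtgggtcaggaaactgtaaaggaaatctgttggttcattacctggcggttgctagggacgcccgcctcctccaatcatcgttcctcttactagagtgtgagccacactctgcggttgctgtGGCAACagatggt

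These windows are chr12:33092876-33093125 on the minus strand for Cdhr3, chr3:27896369-27896618 on the minus strand for Tmem212, chr9:44240427-44240676 on the plus strand for Ccdc153 and chr8:110266727-110266976 on the plus strand for Hydin. The half-site begins 6 bases before the start of Cdhr3, 13 before that of Hydin and 152 before that of Ccdc153. It also stands 51 bases before the start of Dynlrb2 and 12 before one of the 2 starts of Pifo, which makes 5 of the 8 windows, and 10.4% of the 32851 promoter windows of the same length hold it on either strand. The windows of Tmem212 and Mia do not hold these letters. The forkhead motif GTAAACA, the kind of motif that FOXJ1 binds, was found on either strand in 0 of the 8 windows and in 3.17% of all windows. The half-site is thus in windows of Pifo and Dynlrb2 as well as in those of Cdhr3 and Ccdc153, which differed in their levels across libraries as described next.

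Levels between genes were compared per kilobase of exon. The lengths include exon bases shared with another gene, 33.6% of those of Rarres2 and 41.2% of those of Mia. The levels per kb of these genes may thus be understated, and their places in the order below carry this limit. Foxj1 was the highest of the 9, at a median of 5.01 CPM per kb over the 22 libraries (3.52 to 9.25), followed by Tmem212 at 3.31 (1.76 to 5.11). Ccdc153, at 2.52 CPM per kb (1.22 to 3.83), and Dynlrb2, at 2.42 (0.954 to 5.11), were not separated, since Ccdc153 was the higher of the pair in 11 of 22 libraries. Rarres2 followed at 1.26 CPM per kb (0.721 to 1.95), then Cdhr3 at 0.920 (0.419 to 1.18) and Pifo at 0.767 (0.272 to 2.46), and Cdhr3 was above Pifo in only 13 of 22 libraries. Hydin, whose exons add up to 18037 bases, was at 0.298 CPM per kb (0.161 to 0.467). Mia was last, at 0.0200 CPM per kb. The other steps of this order held in 20 to 22 of the 22 libraries. Dynlrb1, the paralog of Dynlrb2 that is used by cytoplasmic dynein in all cells, stood at 71.5 CPM per kb.

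Mia, which codes for a small secreted SH3 domain protein, was not usable as a marker here. Its count was between 0 and 6 in the 22 libraries, with a median of 1, and it was at 0 in 3 of the 5 WT EE libraries. It did not pass the filter on low counts, so that 8 of the 9 members entered the fits. The counts behind the other members were also modest, with medians of 29.5 for Pifo, 44.5 for Dynlrb2, 70.5 for Tmem212, 110 for Rarres2, 128 for Cdhr3, 158 for Ccdc153, 166 for Hydin and 451 for Foxj1. Library 9 had the lowest depth, and its values rest on 4 counts for Pifo, 11 for Dynlrb2 and 18 for Rarres2.

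**Figure D1:**
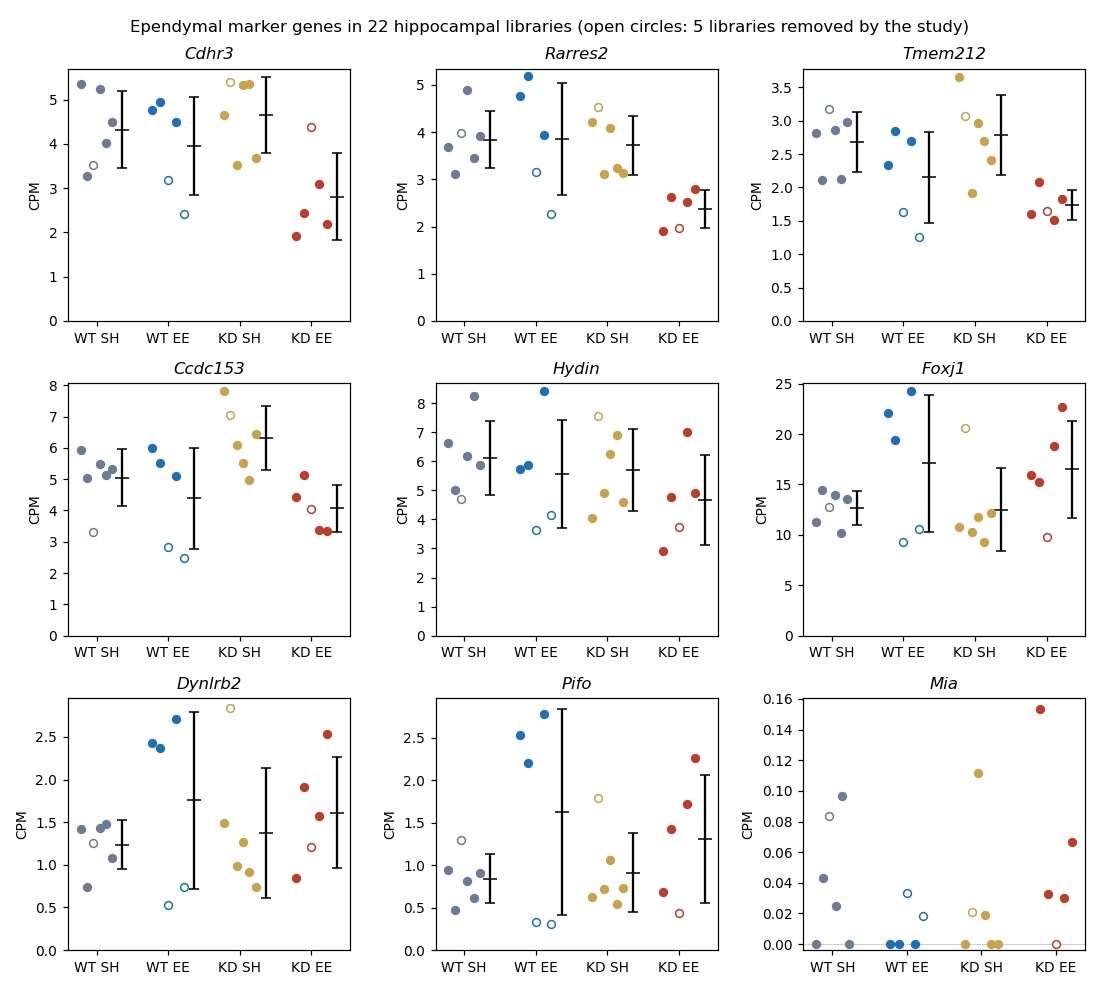
CPM of the 9 members (y axis, linear) in each library of the 4 groups (x axis), with the mean and SD of the 22 libraries as a black bar for all but Mia. Open circles are the 5 libraries left out of the study's comparisons. Cdhr3 and Rarres2 are lowest in KD EE, Foxj1, Dynlrb2 and Pifo are high in the 3 filled WT EE points and low in the 2 open ones, and Mia stays at or below 0.153 CPM.

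The 8 members fell into sets that did not follow the housing of the mice in the same way. Cdhr3, Rarres2, Tmem212 and Ccdc153 were lowest on average in KD EE and had fitted log2 fold changes of EE against SH below 0 in both genotypes over the 22 libraries, near 0 for Rarres2 in WT. Over the 17 libraries the direction in WT turned, and all 4 lay above 0 there, while in KD they stayed below 0. Foxj1, Dynlrb2 and Pifo were higher on average in EE in both genotypes. Hydin had the directions of the first 4, with smaller log2 fold changes in KD, -0.24 over the 22 libraries and -0.07 over the 17. Its group means ran from 4.66 CPM in KD EE to 6.11 CPM, with a wide spread in each group.

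Cdhr3 codes for a cadherin-related protein of multiciliated cells that is also known as the receptor of rhinovirus C. In WT EE it was at 4.76, 4.94 and 4.50 CPM in libraries 16, 17 and 33A, and at 3.18 and 2.42 CPM in 31B and 35A. In KD EE it was at 1.91, 2.43, 3.09 and 2.20 CPM in libraries 7, 8, 32A and 36A, and at 4.38 CPM in library 9. Without the 3 libraries left out of the 17, every WT EE library lies above every KD EE library, and with them the groups overlap. Of the KD EE libraries, 31B lay below library 9 alone. In SH, Cdhr3 ran from 3.28 to 5.36 CPM in WT (median 4.26) and from 3.52 to 5.39 CPM in KD (median 4.99). The WT means were 4.32 ± 0.867 CPM in SH (SD, n = 6) and 3.96 ± 1.10 CPM in EE (SD, n = 5), and the KD means 4.65 ± 0.863 CPM in SH (SD, n = 6) and 2.80 ± 0.982 CPM in EE (SD, n = 5). The fitted log2 fold change of Cdhr3 between KD EE and KD SH was -0.76 ± 0.21 (SE), against -0.14 ± 0.20 between WT EE and WT SH. Over the 17 libraries these were -0.86 ± 0.18 and 0.07 ± 0.18. Between WT EE and KD EE it was 0.52 ± 0.22 in the 22 libraries and 0.94 ± 0.19 in the 17.

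Rarres2 codes for chemerin, a secreted attractant of immune cells that also acts as an adipokine. In KD EE it was at 1.91, 2.63, 1.97, 2.51 and 2.80 CPM in libraries 7, 8, 9, 32A and 36A, and in WT EE at 4.76, 5.18, 3.15, 3.95 and 2.26 CPM in 16, 17, 31B, 33A and 35A. Every KD EE library lay below every SH library of either genotype, since Rarres2 ran from 3.11 to 4.89 CPM in WT SH (median 3.81) and from 3.11 to 4.53 CPM in KD SH (median 3.67). Against WT EE there was an overlap through 35A alone. The WT means were 3.84 ± 0.607 CPM in SH (SD, n = 6) and 3.86 ± 1.19 CPM in EE (SD, n = 5), and the KD means 3.72 ± 0.628 CPM in SH (SD, n = 6) and 2.36 ± 0.399 CPM in EE (SD, n = 5). Its log2 fold change was -0.61 ± 0.18 (SE) between KD EE and KD SH and -0.01 ± 0.17 between WT EE and WT SH, and over the 17 libraries -0.50 ± 0.16 and 0.26 ± 0.16. Between WT EE and KD EE it was 0.65 ± 0.19 in the 22 libraries and 0.87 ± 0.18 in the 17. Without the 5 libraries whose code carries a letter, all of them EE, it was 1.14. That fit leaves only libraries 16 and 17 in WT EE and 7, 8 and 9 in KD EE. What the letter stands for is not given in the sources used here.

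Chemerin acts through Cmklr1 and Gpr1, and Ccrl2 binds it without signaling. None of the 3 receptor genes was called in any comparison of the 22 or of the 17 libraries. In the 22, 0 of 18482 genes were called in each comparison. In the 17, 664 of 18701 genes were called in WT, 325 in KD and 1 between WT EE and KD EE. Between WT SH and KD SH and for the interaction, 0 genes were called there. The missing calls thus say little about these receptors. In EE, the mean of Cmklr1 was 3.68 ± 0.899 CPM for WT (SD, n = 5) and 3.47 ± 0.750 CPM for KD (SD, n = 5), which differ by a log2 fold change of 0.09 ± 0.19 (SE). Gpr1 was under 1.26 CPM and Ccrl2 under 1.02 CPM in every library. Between KD EE and KD SH, Ccrl2 was at -0.42 ± 0.24 (SE, edgeR adjusted p = 0.571), which did not pass the test.

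Tmem212 codes for a membrane protein of which little is known, and Ccdc153 for a coiled-coil protein of the nexin-dynein regulatory complex. In KD EE, Tmem212 was at 1.61, 2.07, 1.64, 1.51 and 1.83 CPM, against 1.92 to 3.66 CPM in KD SH (median 2.84). In WT EE it was at 2.33, 2.85 and 2.69 CPM in the kept libraries and 1.63 and 1.26 CPM in 31B and 35A, with 2.12 to 3.18 CPM in WT SH (median 2.84). KD EE and KD SH met only where library 8 lay above library 3. For Ccdc153, KD EE was at 4.44, 5.12, 4.05, 3.39 and 3.33 CPM and KD SH between 4.97 and 7.81 CPM (median 6.27), so that only library 8 reached into the range of KD SH. Ccdc153 in WT EE was at 6.01, 5.51 and 5.11 CPM in the kept libraries, and at 2.82 and 2.49 CPM in 31B and 35A. In WT SH it was between 3.31 CPM, in library 12, and 5.93 CPM (median 5.25). Their log2 fold changes between KD EE and KD SH were -0.66 ± 0.20 (SE) for Tmem212 and -0.63 ± 0.20 for Ccdc153, and between WT EE and WT SH -0.33 ± 0.19 and -0.22 ± 0.20. Over the 17 libraries Tmem212 was at -0.61 ± 0.19 in KD and 0.02 ± 0.19 in WT, and Ccdc153 at -0.61 ± 0.14 in KD and 0.03 ± 0.15 in WT.

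Hydin codes for a very large protein of the central pair whose loss causes hydrocephalus. It was at 2.91, 4.76, 3.72, 7.02 and 4.90 CPM in KD EE and at 5.74, 5.87, 3.65, 8.42 and 4.17 CPM in WT EE, with 4.04 to 7.56 CPM in KD SH (median 5.59) and 4.69 to 8.24 CPM in WT SH (median 6.03). All 4 groups overlap. Its log2 fold change was -0.24 ± 0.22 (SE) between KD EE and KD SH and -0.14 ± 0.21 between WT EE and WT SH, and over the 17 libraries -0.07 ± 0.20 and 0.07 ± 0.21.

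Foxj1, the regulator of the motile cilium program, was lower in the SH libraries, apart from library 2, and in the EE libraries with little Ttr than in the other EE libraries. In WT EE it was at 22.1, 19.4 and 24.3 CPM in libraries 16, 17 and 33A, and at 9.32 and 10.6 CPM in 31B and 35A. In KD EE it was at 15.9, 15.2, 18.8 and 22.7 CPM in libraries 7, 8, 32A and 36A, and at 9.75 CPM in library 9. The 2 levels within each EE group are those of the high and the low Ttr libraries. In WT SH it ran from 10.2 to 14.5 CPM (median 13.1), and in KD SH from 9.24 to 20.6 CPM (median 11.3), where the highest value was library 2. The log2 fold change was 0.43 ± 0.23 (SE) in WT and 0.43 ± 0.23 in KD over the 22 libraries, and 0.79 ± 0.13 and 0.75 ± 0.12 over the 17.

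Pifo (pitchfork) is a protein of ciliary disassembly and base, and Dynlrb2 is a roadblock light chain of dynein. Pifo in WT EE was at 2.53, 2.21 and 2.78 CPM in the kept libraries and at 0.332 and 0.307 CPM in 31B and 35A. In KD EE it was at 0.689, 1.43, 1.72 and 2.27 CPM in libraries 7, 8, 32A and 36A, and 0.438 CPM in library 9. SH libraries were at 0.475 to 1.30 CPM in WT (median 0.864) and 0.540 to 1.79 CPM in KD (median 0.731), with the highest values in libraries 12 and 2. The groups overlap in all comparisons of housing over the 22 libraries. Dynlrb2 ran in parallel, with 2.43, 2.37 and 2.71 CPM in the kept WT EE libraries against 0.531 and 0.740 CPM in 31B and 35A, and with its KD SH maximum, 2.84 CPM, in library 2. In KD EE, Dynlrb2 was at 0.842, 1.91, 1.21, 1.57 and 2.53 CPM. Log2 fold changes in the 22 libraries were 0.93 ± 0.47 (SE) in WT and 0.60 ± 0.47 in KD for Pifo, and 0.48 ± 0.37 and 0.29 ± 0.38 for Dynlrb2. Over the 17 they were 1.72 ± 0.27 and 1.07 ± 0.26 for Pifo, and 1.01 ± 0.26 and 0.72 ± 0.25 for Dynlrb2. Single libraries weighed on the values of the 22. Dynlrb2 in KD was at 0.07 without KD EE library 36A and at 0.65 without KD SH library 2, and in WT at 0.24 without WT EE library 33A. Pifo in KD was at 0.35 without 36A and at 0.92 without KD SH library 2, and in WT at 0.61 without 33A. For Foxj1 the same 3 omissions gave 0.29 and 0.63 in KD and 0.26 in WT. Dynlrb1 did not share this pattern, with WT means of 68.9 ± 4.61 CPM in EE (SD, n = 5) and 74.6 ± 4.70 CPM in SH (SD, n = 6), a log2 fold change of -0.12 ± 0.07 (edgeR adjusted p = 0.673).

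**Figure D2:**
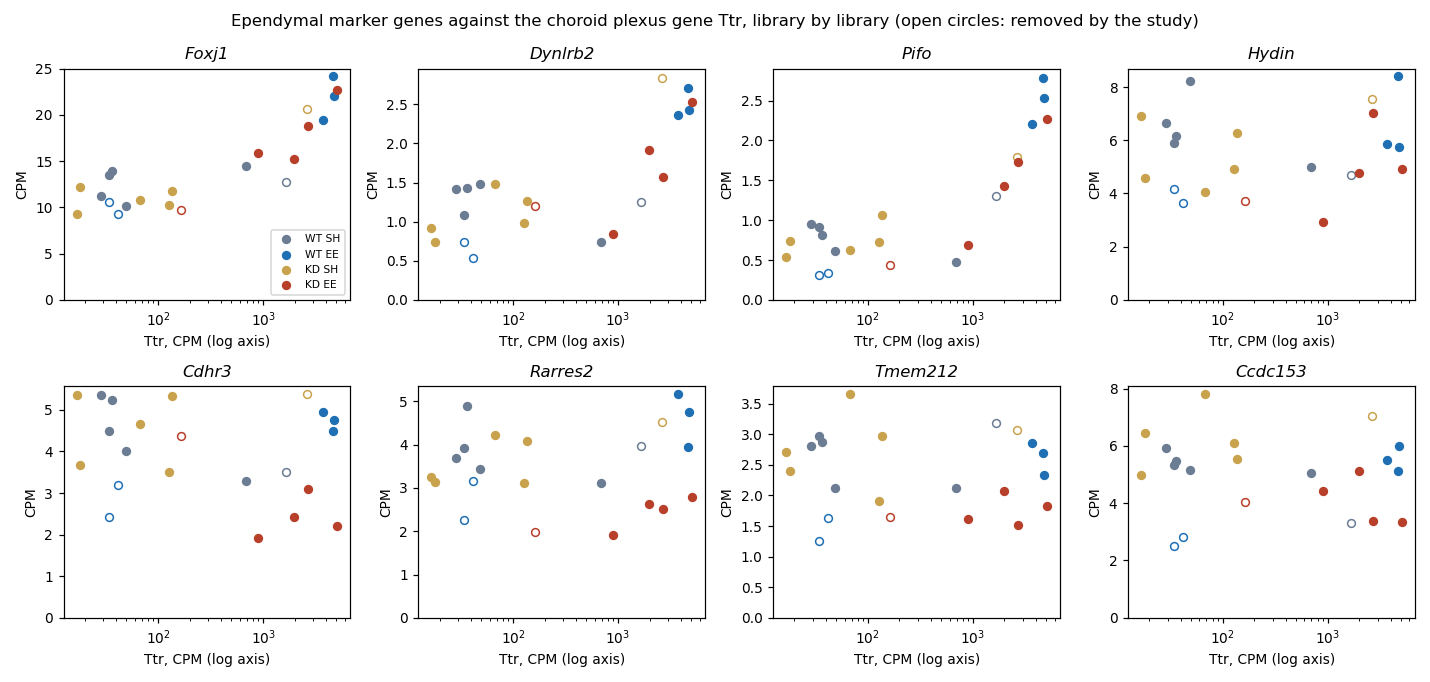
CPM of the 8 members with counts above the floor (y axis, linear) against CPM of Ttr in the same library (x axis, log scale), coloured by group, with open circles for the 5 libraries left out of the study's comparisons. Foxj1, Dynlrb2 and Pifo climb with Ttr in the 10 libraries at 686 CPM or more. In KD EE (red) Rarres2 lies between 1.91 and 2.80 CPM, highest where Ttr is highest, and Tmem212 at or below 2.07 CPM. Cdhr3 reaches 4.38 CPM in the 1 KD EE library with little Ttr.

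Ttr was used to set ependyma beside choroid plexus. Its values fell into separate clusters, 12 libraries between 16.8 and 164 CPM and 10 between 686 and 5105 CPM, so that relations are given within each and not over all 22. The higher cluster holds 2 WT SH, 1 KD SH, 3 WT EE and 4 KD EE libraries. Within it, Pearson's r of log2 CPM with Ttr was 0.98 for Pifo (Spearman's rho 0.94), 0.93 for Dynlrb2 (rho 0.76) and 0.82 for Foxj1 (rho 0.87). Without the 2 libraries farthest from the median of Ttr, r was 0.96, 0.74 and 0.92. For Cdhr3 and Rarres2 in the same 10 libraries r was 0.41 and 0.50 (rho 0.24 and 0.35), which fell to 0.16 and 0.22 without those 2 libraries, and for Tmem212 and Ccdc153 it was 0.22 and 0.07. Hydin was between, at 0.60 (rho 0.47). These are descriptions over 10 libraries of 4 groups that also share housing with Ttr. A pooled r does not give the relation inside a group where levels differ between groups, as those of Rarres2 do.

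In the 12 libraries with little Ttr the relation was not seen for any of the 8 members. There r lay between -0.27 (Hydin) and 0.32 (Dynlrb2), with 0.05 for Pifo, -0.16 for Foxj1 and 0.02 for Cdhr3. Foxj1 still stood at 9.24 to 13.9 CPM in these 12 libraries, Ccdc153 at 2.49 to 7.81 CPM and Cdhr3 at 2.42 to 5.36 CPM. Inside WT EE the picture was another one, since all 8 members were lower in both libraries with little Ttr (31B and 35A) than in each of the other 3. In KD EE the only library with little Ttr, library 9, was below the other 4 for Foxj1 and Pifo and above them for Cdhr3. In order of rising Ttr (libraries 9, 7, 8, 32A and 36A), Rarres2 in KD EE was at 1.97, 1.91, 2.63, 2.51 and 2.80 CPM. With 5 libraries in a group no correlation is given. The members other than Mia were detected in libraries where Ttr was near its minimum.

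The whole choroid plexus list moved with Ttr. Of its 16 genes, 0 had a library at 0 counts, and their summed CPM was between 68.7 and 1967 in WT SH, 67.4 and 5578 in WT EE, 47.6 and 3078 in KD SH, and 226 and 5989 in KD EE. The median log2 fold change of the 16 over the 22 libraries was 2.60 in WT and 2.07 in KD, beside medians over all genes tested of 0.01 and 0.00. None passed the test in the 22 libraries, with 15 of 16 at an unadjusted edgeR p under 0.05 in WT and 9 in KD, and all 16 were called in both genotypes in the 17. With the log2 CPM of Ttr as a covariate, the log2 fold changes of EE against SH became -0.00 ± 0.14 (SE) for Foxj1, -0.18 ± 0.34 for Pifo and -0.26 ± 0.30 for Dynlrb2 in WT, and -0.05 ± 0.15, -0.42 ± 0.35 and -0.37 ± 0.31 in KD. Those of Cdhr3, Rarres2, Tmem212 and Ccdc153 in KD were -0.84 ± 0.23, -0.87 ± 0.18, -0.89 ± 0.21 and -0.82 ± 0.22 in that fit. The difference of Cdhr3 between WT EE and KD EE was 0.54 ± 0.22 with the covariate and that of Rarres2 0.70 ± 0.17, close to their values without it. The covariate has a single slope per gene over all 22 libraries, while Foxj1 and Pifo followed Ttr only in the 10 libraries with more of it. The fold changes of that fit depend on this slope, and no other form of it was fitted. In the 17 libraries, where Ttr and housing do not overlap and cannot be told apart, the covariate left 0 of all genes called in either genotype (664 in WT and 325 in KD without it), with 771 and 525 at an unadjusted edgeR p under 0.05. Foxj1 was at 0.42 ± 0.25 in WT and 0.41 ± 0.23 in KD in that fit, with wider SE than without Ttr.

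**Figure D3:**
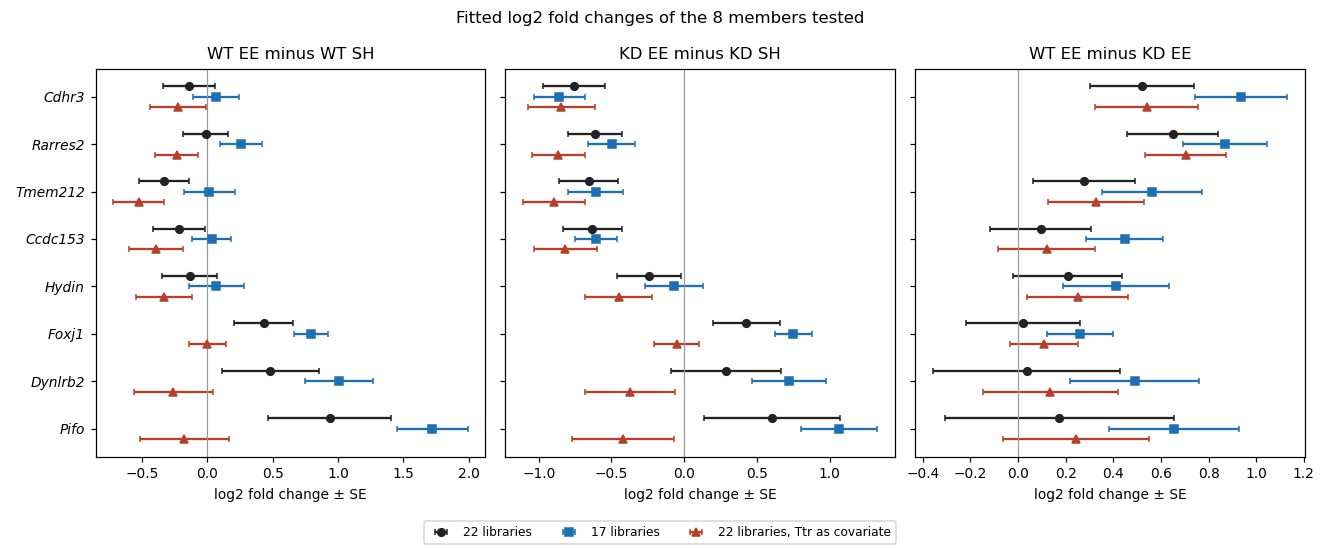
Fitted log2 fold changes with SE (x axis) of the 8 members tested (y axis) for EE against SH in WT, the same in KD, and WT EE against KD EE. Black circles are the 22 libraries, blue squares the 17, and red triangles the 22 with Ttr as a covariate. Foxj1, Dynlrb2 and Pifo move to 0 or below with the covariate in both genotypes, and the 4 members at the top in KD stay between -0.50 and -0.89 in all 3 fits.

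Counts of members past the threshold (adjusted p up to 0.05, log2 fold change of at least 0.38 in size) depended on the libraries. Over the 22 libraries, 0 of the 8 were called in any of the 5 comparisons, where 0 of 18482 genes (0.0%) were called by edgeR in each. Unadjusted p under 0.05 were held by 1598 genes in WT, 1779 in KD, 482 between WT EE and KD EE, 1065 between WT SH and KD SH and 377 for the interaction. DESeq2 called 0 of the 9 over the same libraries. Of all 49568 gene symbols it called 23 in WT, 2 in KD and 0 between WT EE and KD EE. Between WT SH and KD SH it called 2, and for the interaction 0. Over the 17 libraries edgeR called Foxj1, Dynlrb2 and Pifo higher in WT EE than in WT SH, 3 of 8 members beside 3.55% of all genes in either direction and 3.48% higher. In KD, Foxj1 and Pifo were called higher and Cdhr3 and Ccdc153 lower, 4 of 8 beside 1.74% of all genes, with 1.64% called higher and 0.0963% lower. Between WT EE and KD EE, 0 of 8 were called by edgeR beside 1 gene in all (0.00535%). DESeq2 called Cdhr3 and Rarres2 there, beside 18 genes in all of 49568. Nothing is read from these shares, since the members were chosen on the same contrasts, and since the 17 libraries were picked by their similarity within groups.

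Across libraries Foxj1, Dynlrb2 and Pifo formed the closest set. Pearson's r of log2 CPM over the 22 libraries was 0.87 between Foxj1 and Pifo (rho 0.83), 0.87 between Dynlrb2 and Pifo (rho 0.82) and 0.74 between Foxj1 and Dynlrb2 (rho 0.66). Rarres2 and Tmem212 shared an r of 0.82 (rho 0.83), Cdhr3 and Rarres2 one of 0.74 (rho 0.76), and Cdhr3 and Tmem212 one of 0.73 (rho 0.74). The 10 pairs among Cdhr3, Rarres2, Tmem212, Ccdc153 and Hydin ran from 0.33 to 0.82 with a median of 0.60. The 15 pairs between these 5 genes and Foxj1, Dynlrb2 and Pifo ran from -0.10 (Cdhr3 and Foxj1) to 0.54, with a median of 0.31. Hydin was not clearly part of either, with 0.54 to Dynlrb2 and 0.49 to Pifo against 0.43 to Tmem212 and 0.33 to Ccdc153. On deviations from the group means the 5 genes were no longer a set of their own. Their 10 pairs then had a median of 0.54, the 15 pairs one of 0.57 and the 3 pairs among Foxj1, Dynlrb2 and Pifo one of 0.87. The 15 pairs reached 0.81 for Rarres2 with Pifo and with Dynlrb2, while Cdhr3 and Foxj1 stayed at 0.18. Within a group, then, a library with more Pifo also tended to hold more Rarres2. All these points share the depth and the dissection of a library.

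**Figure D4:**
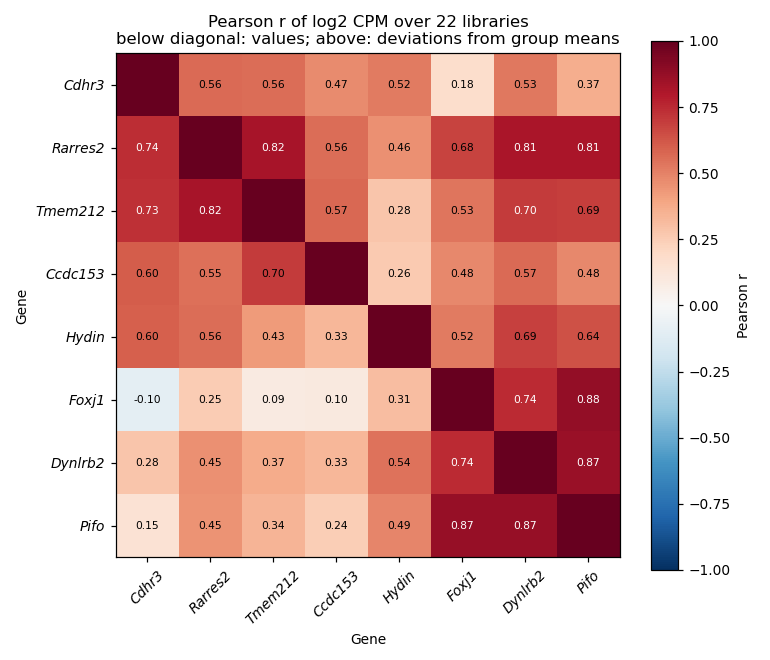
Pearson's r of log2 CPM between the 8 members over 22 libraries, as colour and number, with both axes listing the genes. Below the diagonal are the values themselves and above it the deviations from group means. The block of Foxj1, Dynlrb2 and Pifo stands apart below the diagonal, with a median of 0.31 to the other 5 genes, while above it the median between the sets is 0.57, beside 0.54 within the 5 genes.

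The genes most like single members were of several kinds. Among 18481 other genes over the 22 libraries, those with the highest r to Cdhr3 were Zfp984 (r = 0.86), Gm16794 (0.84), A330069K06Rik (0.84), Smkr-ps (0.81) and Dnah10 (0.80), an axonemal dynein heavy chain. Rarres2 was 18th in the ranking of Cdhr3 and Tmem212 20th, while Foxj1 was at rank 12125. For Rarres2 they were Cdhr4 (0.82), a cadherin-related gene of ciliated cells, Oas1c (0.80), Cfap161 (0.80), a ciliary protein, Gm16006 (0.80) and Nkain4 (0.80). For Foxj1 they were Msx1 (0.95), Wfikkn2 (0.94), Col8a2 (0.93), Pbxip1 (0.93) and Ace (0.93), none of them a gene of the axoneme. Pifo ranked 135th for Foxj1 and Dynlrb2 453rd. The genes most like 2 further members were named after their values were seen. The highest for Tmem212 outside the members was Mog (0.82), a myelin gene of oligodendrocytes, and for Pifo it was Ttc21a (0.95), a ciliary gene.

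The other ependymal and cilium genes were tested as lists of 23 further ependymal genes, 10 of the central pair, 16 of radial spokes and nexin links, 21 of axonemal dyneins and their assembly, and 13 that drive multiciliation. Of 83 genes in all, 81 passed the filter in the 22 libraries. None of the 81 was called in any comparison of the 22 (0.0% of all genes). At an unadjusted edgeR p under 0.05, 7 were higher and 1 lower in WT EE than in WT SH, 6 higher and 10 lower in KD EE than in KD SH, and 2 higher in WT EE than in KD EE. Over all 18482 genes, 969 were higher and 629 lower in WT, and 929 higher and 850 lower in KD. Between WT EE and KD EE 272 were higher and 210 lower. Median log2 fold changes of the 81 were 0.11 in WT, -0.01 in KD and 0.11 between WT EE and KD EE, beside 0.01, 0.00 and 0.00 over all genes. With Ttr as a covariate, 70 of the 81 had a log2 fold change below 0 in KD (median -0.22) and 50 in WT (median -0.07), with 0 called. The signs and median over all genes were not taken in that fit, so that these counts have no baseline. Of all 18482 genes, 2505 in KD and 1523 in WT had an unadjusted edgeR p under 0.05 there.

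Ependymal genes in the 22 libraries were led in KD by Sntn, which codes for sentan, a protein of the tip of motile cilia. Its KD means were 1.18 ± 0.436 CPM in SH (SD, n = 6) and 0.446 ± 0.225 CPM in EE (SD, n = 5), a log2 fold change of -1.35 ± 0.34 (SE, edgeR adjusted p = 0.453) that did not pass the test. Enkur, a ciliary microtubule protein, was at -0.50 ± 0.18 (SE, edgeR adjusted p = 0.467). The list had 8 of its 23 genes above 0 and 15 below in KD (median -0.17), and 10 above and 13 below in WT (median -0.07). In the 17 libraries Cfap126, Mlf1 and Lrriq1 were called higher in WT EE and Lrriq1, 1700007K13Rik and Mlf1 higher in KD EE. The 17 libraries were kept for their similarity within groups, which narrowed the spread that p measure, and the lists were chosen with earlier results known. Adjusted p of the 17, here and for the lists below, describe that selected set and support no claim beyond it. Cfap126, a ciliary protein that works with the planar polarity of multiciliated cells, had a log2 fold change of 1.24 ± 0.19 (SE, edgeR adjusted p = 0.000209) in WT. The same gene was at 0.64 ± 0.36 (adjusted p = 0.651) in the 22, with WT means of 3.38 ± 2.02 CPM in EE (SD, n = 5) and 2.16 ± 0.452 CPM in SH (SD, n = 6).

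Genes of the axoneme had no call in the 22 libraries and 15 in the 17 (13 in WT and 2 in KD), all of them higher in EE. Of the central pair, Spag16 rose by 1.63 ± 0.23 on the log2 scale in WT (edgeR adjusted p = 8.28e-05) and Cfap69 by 0.53 ± 0.13 (adjusted p = 0.0210), 2 of 10 genes, with 0 in KD. Of radial spokes and nexin links, 5 of 16 rose in WT (Drc7, Rsph1, Rsph4a, Rsph9 and Drc3) and 2 in KD (Drc7 and Rsph1). Rsph1, a radial spoke head protein, rose by 1.06 ± 0.15 in WT (edgeR adjusted p = 9.07e-05) and by 0.61 ± 0.15 in KD (adjusted p = 0.0324). Drc7, of the nexin-dynein regulatory complex, rose by 2.78 ± 0.25 in WT (edgeR adjusted p = 3.68e-07) and by 2.47 ± 0.24 in KD (adjusted p = 2.61e-06). Of the dyneins, 6 of 21 rose in WT and 0 in KD, led by Dnaic2, an intermediate chain of the outer arm, at 1.01 ± 0.16 (edgeR adjusted p = 0.000285) in WT and 0.14 ± 0.16 (adjusted p = 0.786) in KD. In the 22 libraries Spag16 was at 0.97 ± 0.40, Rsph1 at 0.53 ± 0.30, Drc7 at 1.73 ± 0.61 and Dnaic2 at 0.50 ± 0.27 in WT, with edgeR adjusted p of 0.474, 0.662, 0.419 and 0.624. The difference between the genotypes in the response to housing was tested by the interaction, which called 0 of these genes in either set. It called 0 of all 18482 genes in the 22 libraries and 0 of all 18701 in the 17. The missing calls thus do not show that the genotypes respond alike.

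Factors of multiciliation were called in both directions in KD over the 17 libraries. Trp73, which acts upstream of Foxj1, was called higher in EE in both genotypes of the 17 libraries, at 0.77 ± 0.17 (SE, edgeR adjusted p = 0.00837) in WT and 0.82 ± 0.16 (adjusted p = 0.00616) in KD. Myb, which drives the amplification of centrioles in cells that become multiciliated, was called lower in KD EE, at -0.93 ± 0.24 (edgeR adjusted p = 0.0464), with -0.11 ± 0.25 (adjusted p = 0.899) in WT. In the 22 libraries the KD means of Myb were 1.33 ± 0.232 CPM in SH (SD, n = 6) and 0.675 ± 0.167 CPM in EE (SD, n = 5), a log2 fold change of -0.89 ± 0.24 (SE, edgeR adjusted p = 0.453). Its WT means were 1.06 ± 0.360 CPM in SH (SD, n = 6) and 1.08 ± 0.227 CPM in EE (SD, n = 5).

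Over all 5 lists of the 17 libraries, 17 of 81 genes were called higher in WT EE than in WT SH and 0 lower, with a median log2 fold change of 0.25, beside 3.48% of all genes called higher. In KD, 6 were called higher and 1 lower, with a median of 0.01, beside 1.64% of all genes called higher and 0.0963% lower. The 7 calls in KD became 4 without KD SH library 3, WT SH library 10, WT SH library 15 or WT EE library 16, 3 without KD EE library 32A and 1 without KD EE library 36A. Between WT EE and KD EE 0 were called by edgeR, and DESeq2 called 2 (Dnaic2 and Rsph1) beside 18 of all 49568 gene symbols. In the edgeR fit 74 of 81 were above 0 (median 0.31, beside 0.00 over all genes), and 26 had an unadjusted p under 0.05. Over all 18701 genes 1196 were under 0.05, 792 of them higher in WT EE. The share of all genes above 0 was not counted. The choroid plexus list was higher in EE in the same libraries, with medians on the log2 scale of 4.34 (WT) and 4.18 (KD). That is the direction of the higher calls and the opposite of the 1 lower call in KD, Myb. The relation of single called genes to this list was not tested. With Ttr as a covariate 0 of the 81 were called in either genotype of the 17. As Ttr and housing do not overlap there, their parts cannot be told apart.

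**Figure D5:**
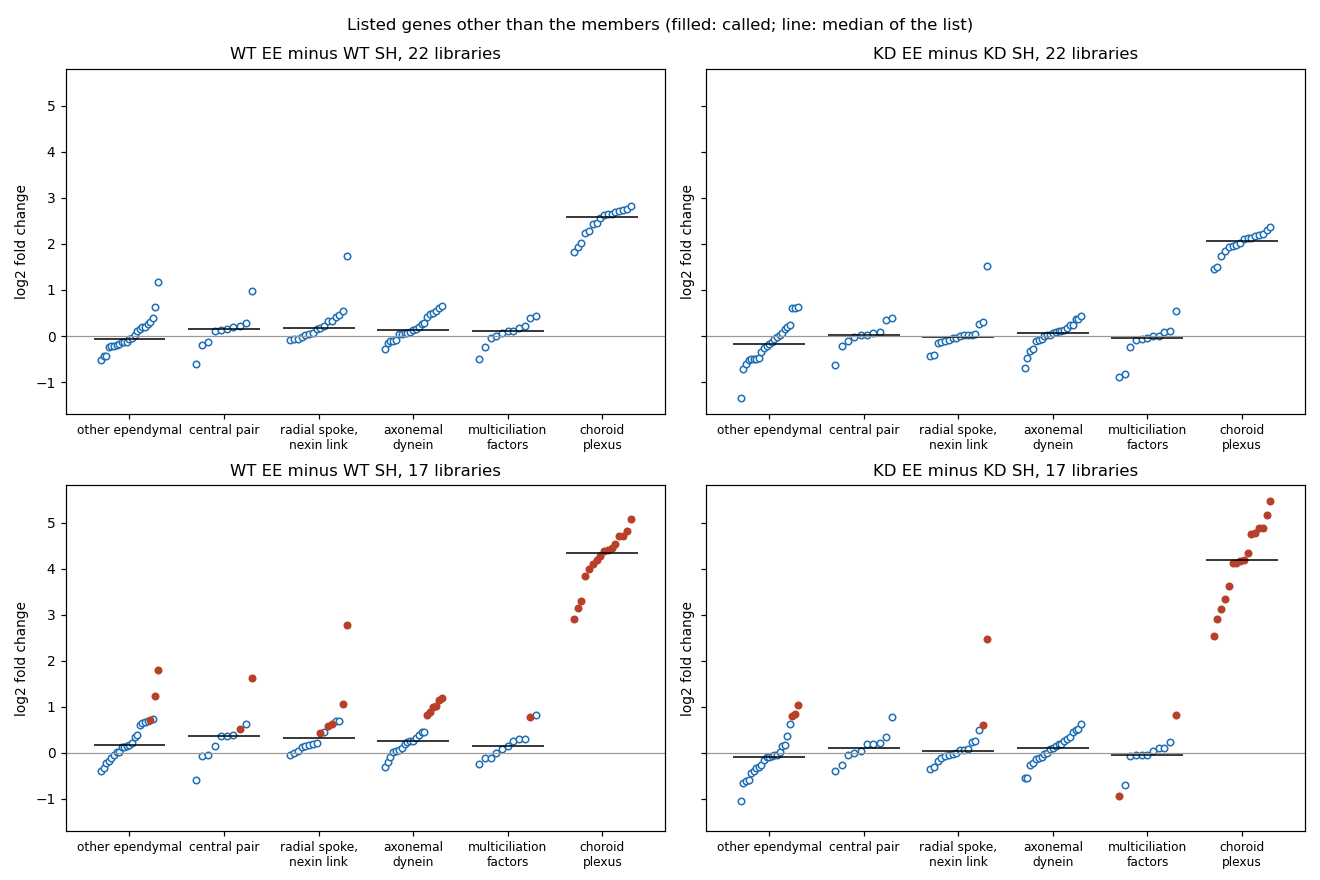
Log2 fold changes of EE against SH (y axis) for the genes of 5 ependymal and cilium lists and of the choroid plexus list (x axis, 1 point per gene in rising order), in WT and KD and in 22 and 17 libraries. Filled points were called and lines are medians. Calls appear only in the 17 libraries, 17 genes in WT and 7 in KD outside the choroid plexus list, all 16 genes of which were called.

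Markers of other tissue at the edge of the dissection also differed between libraries. The 6 oligodendrocyte genes, which mark the white matter that borders the ventricle, had log2 fold changes below 0 in 6 of 6 in KD (median -0.17, 3 at an unadjusted edgeR p under 0.05) and in 5 of 6 in WT (median -0.14, 2 under 0.05), with 0 called. Over all 18482 genes, 1779 in KD and 1598 in WT had an unadjusted edgeR p under 0.05. The summed CPM of the 6 oligodendrocyte genes ran from 4788 to 6166 in KD SH and 4347 to 5341 in KD EE. Cell type lists that do not mark the edge also had lower median sums in EE, apart from endothelial genes in WT. From SH to EE, the microglial sum went from 210 to 184 CPM in KD and from 214 to 200 CPM in WT. That of hippocampal neurons went from 5229 to 4827 CPM and from 5367 to 5059 CPM, and that of astrocytes from 2273 to 2076 CPM and from 2262 to 2109 CPM. The 5 thalamic genes summed to between 32.6 and 87.0 CPM in 21 libraries and to 266 CPM in library 12. Sums of 6 striatal genes were between 92.7 and 111 CPM in WT EE libraries 16, 17 and 33A and KD EE libraries 8, 32A and 36A, which are rich in Ttr, Foxj1 and Pifo, and between 61.9 and 73.9 CPM in 31B, 35A and 9. They were at 75.5 CPM in KD EE library 7, and the highest sum, 165 CPM, was in WT SH library 14. Sums of 5 meningeal genes in WT EE were between 92.7 and 120 CPM in 16, 17 and 33A and at 63.1 and 74.9 CPM in 31B and 35A. In KD EE they ran from 65.6 CPM in library 9 to 101 CPM in 32A. The part of these 2 lists in the levels of Foxj1, Dynlrb2 and Pifo was not tested. None of the oligodendrocyte, thalamic, striatal and meningeal lists had a gene at 0 in any library. The part of the oligodendrocyte and thalamic genes in the low values of Cdhr3, Rarres2, Tmem212 and Ccdc153 in KD EE was not tested.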

How the data were processed

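PolyA RNA of the hippocampus was sequenced as paired-end reads. Reads were trimmed by the authors (Skewer) and aligned by STAR 2.5 to GRCm38. HTSeq, in its unstranded mode, counted the unique alignments of each gene symbol. The deposited files hold these raw counts for each library. Lines for fragments outside single genes (14.0% to 18.6% of fragments in the 22 libraries) were left out of library sizes and tests. A further deposited table, with normalized values of 17 of the libraries, was not used.

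Libraries were grouped by their labels. The members and the gene lists were chosen with earlier results of these data known. Counts of the 22 libraries were filtered with filterByExpr by group, scaled by TMM and fitted with the quasi-likelihood test of edgeR 4.0.16 (R 4.3.3), with 1 mean for each of the 4 groups. Benjamini-Hochberg adjustment ran over 18482 genes. Calls needed an adjusted p up to 0.05 and a log2 fold change of at least 0.38 in size (the threshold of the study). The labels do not say more of the replicates than that they are separate samples of a group, and p measure the spread between them. In the 17 libraries that spread was narrowed beforehand, since libraries were removed for poor correlation with their group. Log2 CPM for correlations had a prior count of 2. The same was done over the 17 libraries of the study, with DESeq2 1.42.0 as an alternative tool and Ttr as a covariate. The fit was tested on simulated data. Counting floors and intervals cover counting error only, as the reads carry no molecular identifiers.

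Genes named were the 9 members, Ttr, the 5 genes most like Cdhr3, Rarres2 and Foxj1, the called genes of each list (up to 4 per direction with the lowest p, otherwise the 2 with the lowest p), the chemerin receptors and Dynlrb1. The further called genes of the lists were named after their values were seen. Exon lengths and overlaps came from GENCODE M21, and promoter windows from RefSeq on GRCm38.p6, a release of the authors' build.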

Additional observations from a re-analysis of the deposited data

Results flagged for a closer look

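Among 32 sets of values (8 members in 4 groups), 3 had a single library farther from the rest than Dixon's critical gap, which chance exceeds in about 1 in 20. These levels were known when the members were chosen, so that the gaps describe them and test nothing. Foxj1 was at 20.6 CPM in KD SH library 2, with a gap of 0.741 of the group's range. Dynlrb2 was at 2.84 CPM in the same library, with a gap of 0.644. Ccdc153 was at 3.31 CPM in WT SH library 12, with a gap of 0.666. Both libraries are among those left out of the study's comparisons, and both hold more Ttr than the other libraries of their group. The part of Ttr in these values was not tested.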

How the results depend on the processing

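With Ttr as a covariate on the 22 libraries, the log2 fold changes of EE against SH went from 0.93 to -0.18 in WT and from 0.60 to -0.42 in KD for Pifo, from 0.48 to -0.26 and from 0.29 to -0.37 for Dynlrb2, and from 0.43 to -0.00 and to -0.05 for Foxj1. The calls among the other ependymal and cilium genes, 0 in the 22 libraries, became 17 in WT and 7 in KD with the 17 libraries, 19 and 9 with DESeq2 on the 17 (an alternative added after the data were seen), and 8 in WT without the lettered libraries, and were 0 with Ttr as a covariate in the 22 and in the 17. Between WT EE and KD EE they became 2 with DESeq2 on the 17. Over all genes, DESeq2 on the 17 called 729 in WT, 404 in KD and 18 between WT EE and KD EE. Without the lettered libraries 314 of 19153 genes were called in WT, with only 16 and 17 left in WT EE and 7, 8 and 9 in KD EE. For the listed genes, leaving out 1 library at a time gave 0 in all comparisons of the 22. In the 17 it gave 14 to 20 in WT, 1 to 9 in KD (4 without KD SH 3, WT SH 10, WT SH 15 or WT EE 16, 3 without KD EE 32A, 1 without KD EE 36A) and 0 to 1 between WT EE and KD EE (1 without KD SH 5). The difference of Cdhr3 between WT EE and KD EE, 0.52, became 0.94 with the 17 libraries, 0.93 with DESeq2 on them and 0.99 with Ttr added, and 0.43 to 0.67 with 1 library left out. That of Rarres2, 0.65, became 1.14 without the lettered libraries and 0.52 to 0.79 with 1 left out. Neither difference changed sign. The cause was not tested. No paired analysis was possible because library codes are not shared between groups. Mia is limited by its counts, 0 to 6 per library, with 1 count in 35A, the library with the highest depth.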

Other observations

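The 2 EE libraries that did not pass quality control are in no comparison above. In library 33B (WT EE) Foxj1 was at 13.4 CPM, Hydin at 5.30, Ccdc153 at 4.50, Cdhr3 at 3.92 (54 counts), Rarres2 at 3.34, Tmem212 at 1.23 and both Dynlrb2 and Pifo at 1.09, beside 1220 CPM of Ttr. In library 34B (KD EE) the 9 members and Ttr were at 0 counts, in a library with 16442 counts on genes in all, so that it gives no level for any of them.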
